A study of Mus musculus with 2 samples.

Results

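Axon guidance ligands and receptors were examined in lung fibroblasts of mice 14 days after bleomycin or saline. The genes were chosen with earlier results of these data known. By gene symbol alone, they were matched to the netrin, Unc5, Slit, Robo, semaphorin, neuropilin, plexin, ephrin and Eph families. Of 16040 genes in the deposited table, 42 carried such a symbol. Of these, 29 had at least 10 counts over both libraries and are called measured here, and the other 13 are counted as unmeasured. The bleomycin library came from Col1a2-EGFP mice given bleomycin into the trachea, a DNA-damaging drug that scars the rodent lung. The saline library came from Col1a2-EGFP mice given saline by the same route. In both groups, the cells were sorted as lineage-negative and GFP-positive, a sort that selects cells in which the reporter of the collagen gene Col1a2 is on. Which lineage markers were used is not stated in the labels. Each library came from fibroblasts of 3 mice, and the labels used here give no dose, sex or age.

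RNA was profiled by SAGE (serial analysis of gene expression), in which a short tag near the 3′ end stands for a transcript. The bleomycin library held 1099840 counts and the saline library 1080798 counts, and 1 count was worth 0.922 CPM (counts scaled to library size) in the bleomycin and 0.912 CPM in the saline library. Each group is 1 library, so no difference below has a replicate check, and every interval covers counting error only. The fibroblast markers Col1a1, Col1a2, Col3a1, Pdgfra, Dcn, Lum, Fn1 and Tcf21 were all detected, with summed counts of 31102 in the bleomycin and 15651 in the saline library. Of these markers, 4 had a ratio of bleomycin over saline above 1 and 4 below 1. Fn1 had 8890 counts in the bleomycin and 1018 in the saline library, whereas Dcn had 1606 and 4861. Leukocyte markers summed to 5 and 7 counts in the bleomycin and saline libraries, and Ptprc stood at 1 and 0. Endothelial markers summed to 46 counts in the bleomycin and 706 in the saline library, and alveolar and airway epithelial markers to 25 and 210. Cell cycle markers summed to 233 counts in the bleomycin and 9 in the saline library.

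Axon guidance molecules steer growing nerve fibres by attraction and repulsion, and most act through receptors that reshape the actin cytoskeleton. Netrins bind Unc5 receptors, Slits bind Robo receptors, semaphorins bind plexins with or without neuropilins, and ephrins bind Eph receptor kinases on touching cells. The same systems work outside the nervous system, in branching of the lung, in blood vessel growth and in the spacing of mesenchymal cells.

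In these libraries a gene is seen through its tag. Expected tags are shown for the 3 genes that were called different between the libraries, for their partners or paralogues Unc5b and Nrp1, and for both Slits. Each was read from the transcript that GENCODE M21 (assembly GRCm38) pairs with the RefSeq record named in the deposited table. It is the CATG nearest to the 3′ end, the site at which SAGE libraries are usually cut, with the bases that follow it, 26 in all and written 5′ to 3′. Capitals mark the CATG.
Ntn1: CATGatagaactaaatccagatatca
Unc5b: CATGgctgtgtgtctgtgggttctga
Slit2: CATGgatatggaactaaagctagact
Slit3: CATGgaacctctttgagattcagaac
Nrp1: CATGtgacctgtagcccagtgcccag
Nrp2: CATGaatgacaagaaaacaaggggaa
Epha1: CATGgagtgtgtgctggagctgacgg

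All 29 measured genes had such a tag, and none of the 29 tags occurred on the sense strand of a transcript of any other gene in GENCODE M21. In 28 genes the tag lay in the 3′ untranslated region. The exception was Epha1, on chromosome 6, whose tag began 390 bases from the transcript's end, at or before the stop codon. The reverse complement of that tag occurred in transcripts of Zyx, the focal adhesion gene zyxin, which overlaps Epha1 on the other strand. Tags also depend on which transcript end is used. The Ntn1 tag occurred in 2 of 3 annotated Ntn1 transcripts and the Nrp2 tag in 4 of 7 Nrp2 transcripts. The Nrp1 and Slit3 tags each occurred in 1 of 4 transcripts of their gene, and the Slit2 tag in 1 of 23 Slit2 transcripts. No source used here says whether only such tags, or tags at other sites too, entered the deposited counts.

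Ntn1, Nrp2 and Epha1 were lower in the bleomycin library, and none of the 29 measured genes was called higher. A call needed a ratio of at least 2 and an adjusted p under 0.05 in a two-sided exact binomial test of the counts, with Benjamini-Hochberg adjustment over all 9369 genes with at least 10 counts. This test compares the 2 libraries, not the conditions. Over all genes tested, 8.52% were called lower and 8.08% higher, so 3 of 29 lower is near the background and is not a result about the families as a whole. The median log2 ratio of bleomycin over saline was 0.02 for the measured genes and 0.02 for all genes tested, and 16 of the 29 ratios lay above 1. A ratio past 2-fold in either direction, with no test, was found for 5 of the 29 genes and for 26.4% of all genes tested. An adjusted p under 0.05 at any ratio was found for 6 of the 29 genes and for 27.9% of all genes tested. The 6 were Ntn1, Nrp2, Epha1, Slit3, Nrp1 and Unc5b.

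**Figure D1:**
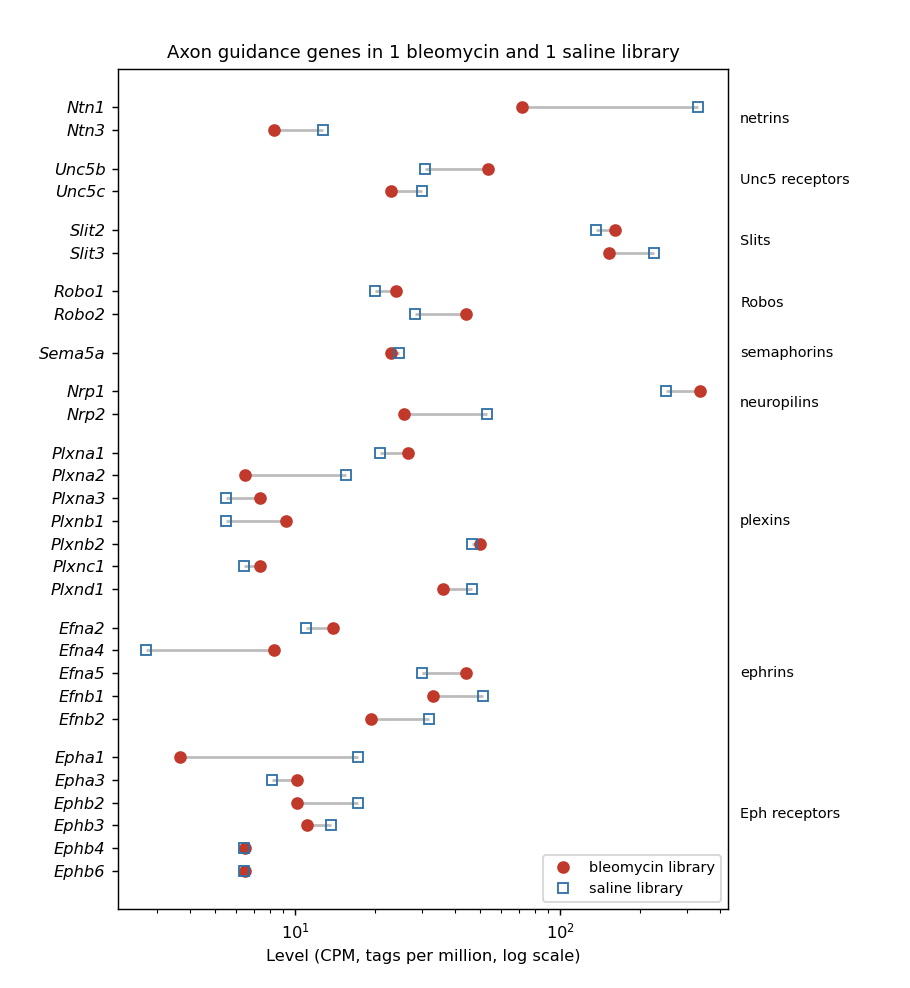
Level of each measured gene in CPM on a log axis, with a filled circle for the bleomycin library and an open square for the saline library (1 library each), grouped by family. Ntn1 shows the widest gap among abundant genes, at 71.9 CPM in the bleomycin and 332 CPM in the saline library, while Slit2, Slit3 and Nrp1 stay at 137 CPM or more in both.

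Most of the tags of the 42 genes came from 4 of them. Semaphorin entries whose symbol is a phrase are not among the 42 (see Other observations). They had 178 and 37 counts in the bleomycin library, and 242 and 25 in the saline library. Ntn1, Nrp1, Slit2 and Slit3 together held 57.7% of all counts of the 42 genes in the bleomycin library (exact 95% interval 55.0 to 60.3) and 62.9% in the saline library (60.5 to 65.2). All 42 genes summed to 1358 counts in the bleomycin and 1646 counts in the saline library, a ratio of 0.834 (0.776 to 0.897). Without Ntn1 the sums were 1280 and 1282 counts in the bleomycin and saline libraries, a ratio of 1.01 (0.934 to 1.09). The summed level thus differed beyond counting error with Ntn1 and not without it. Ligands held 43.1% of the counts in the bleomycin library (40.4 to 45.8) and 57.3% in the saline library (54.9 to 59.8), and receptors held the rest. Of the semaphorins, only Sema5a and Sema5b are among these ligands, whereas plexins and neuropilins are counted among the receptors. The split thus describes these 42 genes and is not shown for the families as a whole. Leaving out Ntn1, ligands summed to 507 counts in the bleomycin and 580 in the saline library, a ratio of 0.884 (0.783 to 0.998).

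**Figure D2:**
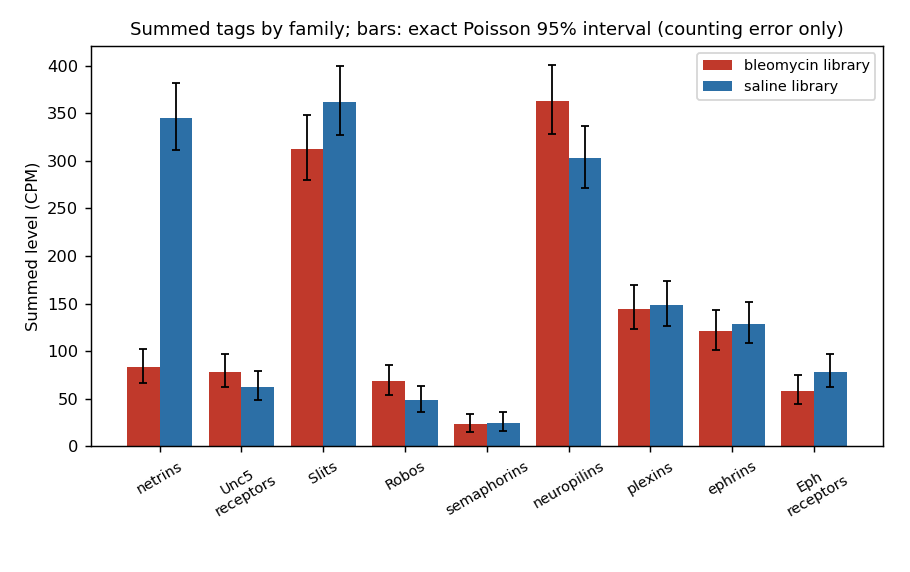
Summed level of each family in CPM, with the bleomycin library on the left of each pair and the saline library on the right (1 library each). Error bars are exact Poisson 95% intervals and cover counting error only. Netrins stand at 83.0 CPM in the bleomycin and 346 CPM in the saline library, and the intervals of all other families overlap between the libraries. Overlap of such intervals is not a test of a ratio. For neuropilins the ratio of summed levels was 1.2 (exact 95% interval 1.03 to 1.39), which leaves out 1.

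Ntn1, which encodes netrin-1, the secreted ligand that attracts or repels depending on the receptor it meets, fell most in absolute terms. It had 78 counts in the bleomycin library and 364 counts in the saline library. The ratio was 0.217 (exact 95% interval 0.168 to 0.277), so Ntn1 was 4.61-fold lower (3.60 to 5.97), with an adjusted p of 1.14e-42 in the exact test. Only 2.63% of all genes tested had a lower log2 ratio. In the saline library Ntn1 had more counts than 95.2% of the genes tested, and in the bleomycin library more than 79.0%. Its share of all counts of the 42 genes was 5.74% in the bleomycin library (4.57 to 7.12) and 22.1% in the saline library (20.1 to 24.2). The call held when a coefficient of variation of 0.2 between preparations was assumed (edgeR exact test, adjusted p = 0.000135), and it was lost at 0.4 (adjusted p = 0.439). Over the alternatives tried, the adjusted p for Ntn1 ranged from 1.33e-44 to 0.439. In the same comparison, marker calls went both ways within the fibroblast and smooth muscle lists and 1 way within every other list with calls. Of 15 tested endothelial markers, 14 were called lower and 0 higher, and of 3 tested epithelial markers, 2 lower and 0 higher. Of 8 cell cycle markers, 8 were called higher. Of 8 fibroblast markers, 3 were called higher and 2 lower, and of 8 smooth muscle markers, 1 was called higher and 4 lower, with summed counts of 1581 in the bleomycin and 1281 in the saline library. Of 6 tested pericyte markers, 2 were called lower and 0 higher, and the 7 pericyte markers in the table summed to 146 counts in the bleomycin and 234 in the saline library. The part of these lists, and of the endothelial and epithelial markers summed above, in the Ntn1 difference was not tested. In bulk counts, fewer cells of a type and less RNA per cell cannot be told apart.

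The other netrin genes were near the detection limit. Ntn3, a related secreted netrin, had 9 counts in the bleomycin and 14 counts in the saline library, a ratio of 0.650 (0.248 to 1.61). Ntn4, a netrin of basement membranes, had 3 and 1 counts in the bleomycin and saline libraries and was unmeasured. Ntn1 thus made up 86.7% of netrin counts in the bleomycin library (77.9 to 92.9) and 96.0% in the saline library (93.6 to 97.8).

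Among netrin receptors, the Unc5 genes were not called. Unc5b, a repulsive netrin receptor also found on blood vessels, had 58 counts in the bleomycin and 34 counts in the saline library. Its ratio of 1.73 (1.11 to 2.72) was the largest among measured genes with at least 50 counts, but stayed under 2, and its adjusted p in the exact test was 0.0446. That p was 0.0566 with total counts and 0.0582 with DESeq2 size factors, and ranged from 0.0306 to 1.00 over all alternatives. Unc5c, a second repulsive netrin receptor, had 25 counts in the bleomycin and 33 in the saline library, a ratio of 0.766 (0.437 to 1.33). The ratio of the receptor gene Unc5b thus lay above 1 and that of its ligand gene Ntn1 below 1. Unc5b made up 69.9% of the counts of both receptors in the bleomycin library (58.8 to 79.5) and 50.7% in the saline library (38.2 to 63.2). These intervals overlap, which does not show that the shares were equal, and the difference in share was not tested. Unc5a had 2 and 0 counts and Unc5d 0 and 1 in the bleomycin and saline libraries. Neo1, which encodes neogenin, a receptor for netrins and repulsive guidance molecules, was chosen after its values were seen. It had 131 counts in the bleomycin and 179 in the saline library, a ratio of 0.740 (0.586 to 0.932), and was not called.

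Both Slit genes, which encode large secreted repellents, were abundant and neither was called. Slit3 had 165 counts in the bleomycin and 247 counts in the saline library, a ratio of 0.676 (0.551 to 0.826) with an adjusted p of 0.00072 in the exact test. Slit2 had 174 counts in the bleomycin and 150 counts in the saline library, a ratio of 1.17 (0.938 to 1.47). Slit3 had more counts than Slit2 in the saline library, whereas both were close in the bleomycin library. Slit3 made up 48.7% of Slit counts in the bleomycin library (43.2 to 54.1) and 62.2% in the saline library (57.2 to 67.0), and these intervals do not overlap. The summed Slit counts were 339 in the bleomycin and 397 in the saline library, a ratio of 0.864 (0.745 to 1.00).

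The Robo receptors, which transmit Slit repulsion, had ratios above 1 that did not pass the test. Robo2 had 48 counts in the bleomycin and 31 in the saline library, a ratio of 1.57 (0.976 to 2.54). Robo1 had 26 counts in the bleomycin and 22 in the saline library, a ratio of 1.20 (0.651 to 2.21). Taken as a sum, the pair had 74 counts in the bleomycin and 53 in the saline library, a ratio of 1.41 (0.979 to 2.05), whose interval includes 1. Their endothelial relative Robo4, which is not among the 42 genes, had 0 counts in the bleomycin and 14 in the saline library and was at least 4.61-fold lower when 3 counts are set as the floor (exact limit 3.28).

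Of the semaphorins, which are secreted or membrane-bound guidance ligands, only Sema5a and Sema5b appeared under their own symbols. Sema5a, a transmembrane semaphorin with thrombospondin repeats, had 25 counts in the bleomycin and 27 in the saline library, a ratio of 0.936 (0.521 to 1.68). Sema5b was at 0 in both. No secreted class 3 semaphorin, the main ligands of neuropilins, appeared under its own symbol, so none could be analysed here.

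**Figure D3:**
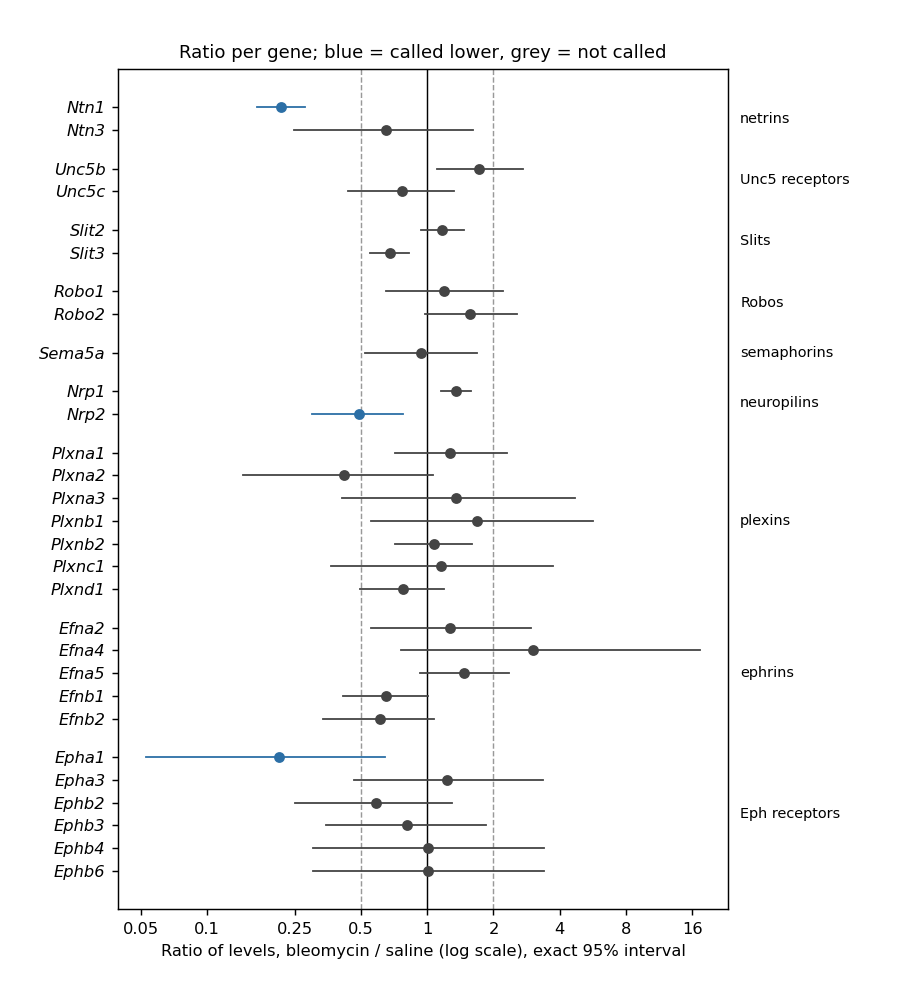
Ratio of the bleomycin over the saline level for each measured gene on a log axis, with its exact 95% interval (counting error only, 1 library each). The solid line marks a ratio of 1 and the dashed lines ratios of 0.5 and 2. Ntn1, Nrp2 and Epha1, in blue, were called lower, and most other intervals include 1.

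The neuropilins, coreceptors that bind class 3 semaphorins and vascular endothelial growth factors, lay on either side of a ratio of 1. Nrp1 was the most abundant of all measured genes in the bleomycin library, with 366 counts there and 274 counts in the saline library. Its ratio was 1.35 (1.15 to 1.59), under the 2-fold limit, with an adjusted p of 0.00119 in the exact test. Nrp2 had 28 counts in the bleomycin and 58 counts in the saline library and was 2.05-fold lower (1.28 to 3.34), with an adjusted p of 0.0084 in the exact test. These counts lay exactly at the smallest difference that could be called at its depth. Its call was lost with 5 added to each count (log2 ratio −0.92), with a ratio of at least 3, with Bonferroni adjustment and with an assumed coefficient of variation of 0.2, and the adjusted p ranged from 0.00534 to 1.00 over the alternatives. Nrp1 made up 92.9% of neuropilin counts in the bleomycin library (89.9 to 95.2) and 82.5% in the saline library (78.0 to 86.5), and these intervals do not overlap.

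Nrp2 is known from lymphatic and venous endothelium, so endothelial markers are given beside it. Of 20 listed endothelial markers, 15 were tested and 14 were called lower, with a median log2 ratio of −3.89. Pecam1 had 3 counts in the bleomycin and 53 in the saline library, and 6 of the 20 markers were at 0 in the bleomycin library, against 2 of 20 in the saline library. The lymphatic markers found in the table summed to 7 counts in the bleomycin and 18 in the saline library. The part of these markers in the Nrp2 ratio was not tested. Other guidance genes that are also known from endothelium, Efnb2, Ephb4, Plxnd1, Unc5b and Nrp1, had ratios between 0.607 and 1.73. With Nrp2 and the unmeasured Efna1 they summed to 520 counts in the bleomycin and 461 in the saline library. Nrp1 alone held 366 of these counts in the bleomycin and 274 in the saline library, so the sum mostly reflects Nrp1.

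None of the 7 measured plexins, the receptors through which semaphorins collapse the cytoskeleton, was called. Plxnb2 and Plxnd1 were the most abundant. Plxnb2 had 54 counts in the bleomycin and 51 in the saline library, a ratio of 1.07 (0.717 to 1.60). Plxnd1, a receptor for class 3 semaphorins with a known role in vessels, had 39 counts in the bleomycin and 51 in the saline library, a ratio of 0.773 (0.496 to 1.20). Plxna1, a partner of neuropilins, had 29 and 23 counts in the bleomycin and saline libraries, a ratio of 1.28 (0.712 to 2.31). These 3 genes had enough counts for a change of 2.02-fold to 2.23-fold to be called. The largest departure was that of Plxna2, with 7 counts in the bleomycin and 17 in the saline library, a ratio of 0.416 (0.146 to 1.06) and an adjusted p of 0.165 in the exact test. At its 24 counts a call would have needed a level at least 3.76-fold lower. Plxna3, Plxnb1 and Plxnc1 had between 6 and 10 counts in each library and ratios of 1.35, 1.69 and 1.16. Plexin counts summed to 157 in the bleomycin and 163 in the saline library, a ratio of 0.974 (0.777 to 1.22).

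Ephrins are membrane-anchored ligands, held by a lipid anchor in class A and by a transmembrane segment in class B. None of the 5 measured ephrins was called, and the classes lay on different sides of a ratio of 1. Efnb1, whose loss disturbs cell sorting at tissue boundaries in mice, had 36 counts in the bleomycin and 56 in the saline library, a ratio of 0.650 (0.415 to 1.01). Efnb2, a ligand of Ephb4 in arteries, had 21 counts in the bleomycin and 35 in the saline library, a ratio of 0.607 (0.336 to 1.07). Among the class A genes, Efna5 had 48 and 33 counts in the bleomycin and saline libraries, a ratio of 1.47 (0.925 to 2.37). Efna2 had 15 and 12 counts, a ratio of 1.26 (0.552 to 2.96), and Efna4 had 9 and 3 counts, a ratio of 3.03 (0.757 to 17.4). All 5 intervals include 1, and Efna4, which had the fewest counts of any measured gene, would have needed a split of 11 against 1 to be called.

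Eph receptors, the receptor tyrosine kinases that bind ephrins, were at low levels, and Epha1 was the only member called. Epha1, the founding member of the family, had 4 counts in the bleomycin and 19 counts in the saline library. It was 4.70-fold lower (1.56 to 19.0), with an adjusted p of 0.0123 in the exact test, and only 3.00% of genes tested had a lower log2 ratio. The call was lost with Bonferroni adjustment and with an assumed coefficient of variation of 0.2 (adjusted p = 0.123), and the adjusted p ranged from 0.00743 to 1.00 over the alternatives. Zyx, which overlaps the Epha1 tag on the other strand, had 462 counts in the bleomycin and 805 in the saline library, a ratio of 0.580 (0.516 to 0.652). No source used here says whether strand was used in counting, so reads of Epha1 and Zyx may not be separable. Epithelial markers, given beside Epha1 because it is known from epithelia, had 2 of 3 tested members called lower, and the surfactant gene Sftpc had 7 counts in the bleomycin and 154 in the saline library. Epcam had 0 and 1 counts in the bleomycin and saline libraries and Cdh1 had 0 in both, and their part in the Epha1 ratio was not tested.

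The other measured Eph receptors had ratios between 0.585 and 1.24, and every interval included 1. Ephb2 had 11 counts in the bleomycin and 19 in the saline library, and Ephb3 had 12 and 15. Epha3 had 11 and 9 counts in the bleomycin and saline libraries. Ephb4, the venous receptor of ephrin-B2, and Ephb6, which lacks kinase activity, each had 7 counts in both libraries. At 14 counts a call would have needed a level at least 5.93-fold lower or 6.07-fold higher, so smaller changes were not detectable at this depth.

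**Figure D4:**
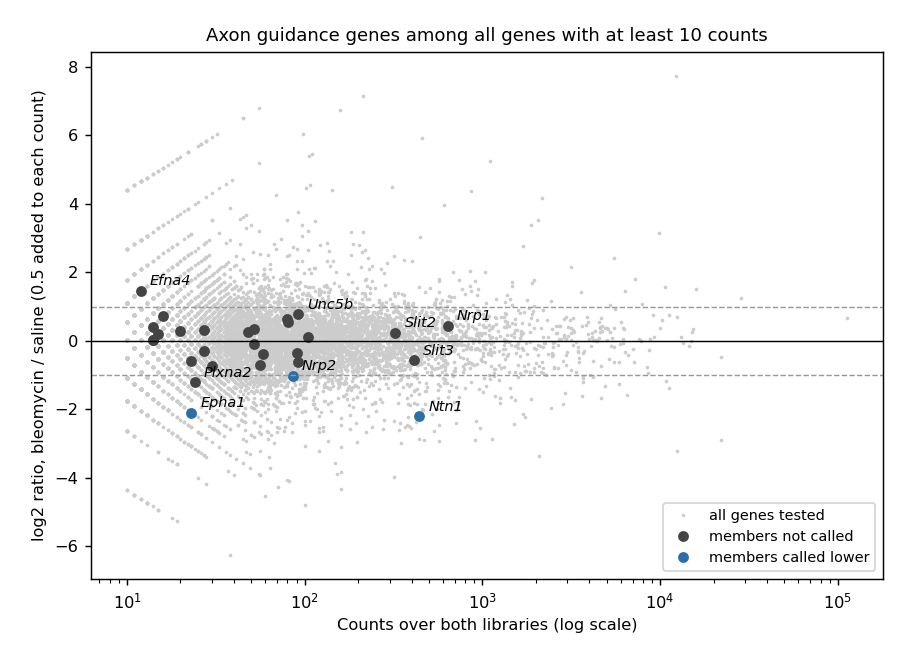
Log2 ratio of bleomycin over saline against the counts over both libraries for all genes tested (light grey) and for the measured guidance genes (dark grey, or blue where called lower). Dashed lines mark 2-fold. Ntn1 lies at 442 counts and a log2 ratio of −2.20, while most guidance genes with over 50 counts lie between the dashed lines.

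Of the 13 unmeasured genes, 3 were at 0 in both libraries, namely Efnb3, Epha6 and Sema5b. The nearest below the limit of 10 counts were Epha4 with 3 counts in the bleomycin and 4 in the saline library, Epha7 with 3 and 3, and Epha2 with 2 and 3. The nearest above it was Efna4 with 12 counts in all. Ephb1 had 3 and 0 counts, Plxna4 2 and 2, Efna1 1 and 2 and Efna3 1 and 0. Where a gene has no count, its level may still reach 2.77 CPM in the bleomycin and 2.74 CPM in the saline library, so lower levels were not detectable at this depth.

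Coreceptors and other guidance ligands outside the 42 genes were read from a list of 24, of which 13 were tested. Of these, 4 were called higher and 1, Robo4, lower, beside 8.08% higher and 8.52% lower over all genes tested. The list was chosen with earlier results of these data known, so these counts are no test of an excess. Their median log2 ratio was −0.24, against 0.02 over all genes tested. Of the 4, Ext1 and Hs6st1 make heparan sulphate, the sugar chain that Slits and netrins bind. Ext1, which polymerises the chain, had 43 counts in the bleomycin and 14 in the saline library, a ratio of 3.11 (1.67 to 6.15). Hs6st1, which sulphates it, had 46 and 21 counts in the bleomycin and saline libraries. Its ratio was 2.22 (1.30 to 3.91), with an adjusted p of 0.0103 in the exact test. Sdc3, a cell surface proteoglycan that carries such chains, had 88 counts in the bleomycin and 37 in the saline library, a ratio of 2.41 (1.62 to 3.63). Lingo1, part of a receptor complex for myelin inhibitors of axon growth, had 11 counts in the bleomycin and 1 in the saline library. Its ratio of 11.1 (1.62 to 479) is uncertain in size, with an adjusted p of 0.0149 in the exact test. That split was the smallest that could be called higher at 12 counts.

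Genes that carry guidance signals inside the cell were called in both directions. Of 61 listed genes, 49 were tested, and 4 were called higher and 7 lower. Over all genes tested, 8.08% were called higher and 8.52% lower. The higher count is at the background. The lower count is above its share, but the list was chosen with earlier results of these data known. Neither count is thus a test of an excess. The median log2 ratio was 0.02, as over all genes tested. Among the higher genes were the kinases Pak1, with 20 counts in the bleomycin and 3 in the saline library, a ratio of 6.74 (2.0 to 35.4), and Limk1, with 59 and 28 counts, a ratio of 2.13 (1.34 to 3.47). Pak1 acts below Rac and Cdc42, and Limk1 phosphorylates cofilin. Abl2, a kinase of the Abl family, had 22 and 7 counts in the bleomycin and saline libraries. Its ratio was 3.18 (1.31 to 8.81), with an adjusted p of 0.0215 in the exact test. Chn1, a Rac-inactivating protein that acts below Eph receptors, had 47 and 13 counts, a ratio of 3.66 (1.95 to 7.37).

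Lower genes included mediators of semaphorin and netrin signals. Dpysl2, a tubulin-binding mediator of semaphorin signalling, had 115 counts in the bleomycin and 283 in the saline library and was 2.43-fold lower (1.95 to 3.05). Fyn, a Src family kinase, had 5 counts in the bleomycin and 31 in the saline library, which made it 6.13-fold lower (2.36 to 20.2). Cdk5, a kinase that acts below semaphorin receptors, had 3 counts in the bleomycin and 14 in the saline library. Its level was 4.61-fold lower (1.29 to 25), with an adjusted p of 0.0464 in the exact test, close to the limit of 0.05. The actin-binding genes Ablim3, with 18 and 79 counts in the bleomycin and saline libraries, and Ablim1, with 14 and 54, were 4.34-fold (2.58 to 7.70) and 3.81-fold lower (2.09 to 7.43). Sh2d3c, an adaptor that binds Eph receptors, was 8.24-fold lower (2.51 to 42.6), with 3 counts in the bleomycin and 25 in the saline library. Endothelial markers, with 46 summed counts in the bleomycin and 706 in the saline library, were lower in the same comparison, and their part in these differences was not tested. For genes of the signalling and coreceptor lists, calls under the alternatives are not given. Over all genes, 1555 calls became 607 when a coefficient of variation of 0.2 was assumed.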

How the data were processed

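Whole-number tag counts per gene were taken as deposited for 1 bleomycin and 1 saline library, each from 3 mice. Per the labels' protocols, the libraries were made with the SOLiD SAGE kit from sorted cells, and the submitters' processing notes list BWA 0.6.2 and the build mm9 without saying what each was used for. The way tags were assigned to genes, and any scaling before deposit, are not given in the sources used. After 1 blank line was left out, 16040 genes remained. For 33 entries the symbol is a phrase from the description; they hold 0.86% of counts, may pool several genes and were matched to no gene. Older symbols were matched through a RefSeq table of GRCm38, which covered 14449 genes (90.1%), and since that build is not mm9 no coordinates are printed.

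TMM factors from edgeR 4.0.16 (R 4.3.3) were 0.986 for bleomycin and 1.01 for saline. With 1 library per group, edgeR's quasi-likelihood test could not be fitted. For each of the 9369 genes with at least 10 counts, the bleomycin count was tested against the sum of both counts (exact binomial test, two-sided, Benjamini-Hochberg adjustment). Genes were called at a ratio of at least 2, with 0.5 added to each count, and an adjusted p under 0.05. Intervals are exact Clopper-Pearson 95% intervals. The counts carry no molecular identifiers in the labels, so intervals and the floor of 3 counts cover counting error only. The test was tried on simulated counts without variation between preparations, so that trial does not cover differences between mice or libraries. Alternatives used other scalings (total counts, DESeq2 1.42.0, upper quartile), count minimums, added counts, fold limits, Bonferroni adjustment and the edgeR exact test with assumed coefficients of variation of 0.2 and 0.4. Any measured gene of the families could be named, as could the called genes of the coreceptor and signalling lists, of which 1 is not reported here. Marker lists are given by counts, sums and a few members. Members and lists were chosen with earlier results of these data known. Computations used Python 3.11.15, scipy 1.17.1 and pandas 2.3.3.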

Additional observations from a re-analysis of the deposited data

How the results depend on the processing

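With 3 genes called lower and 0 higher, the call of Ntn1 held under all alternatives but 1. Bonferroni adjustment left 1 gene lower (Ntn1), an assumed coefficient of variation of 0.2 left 1 (Ntn1) and 0.4 left 0. A ratio of at least 1.5 added 1 higher gene, Unc5b. Over all genes, 1555 calls became 880 when 50 counts were required, 888 when the ratio had to reach 3, 621 with Bonferroni adjustment, 607 with the assumed variation of 0.2 and 29 with 0.4. Ephb4 and Ephb6, with equal counts, turned to a log2 ratio of −0.025 with total counts. The median log2 ratio of the measured genes ranged from −0.09, with 50 counts required, to 0.04, with upper-quartile scaling. A gene with 20 counts needed a ratio of 4.05 to be called higher, and one with 50 counts a ratio of 2.15. No paired analysis was possible because each group is 1 library, and leaving out a replicate was not possible for the same reason.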

Other observations

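In 2 entries the symbol was a phrase taken from a protein domain in the description of a semaphorin. An entry that carries the phrase for an immunoglobulin domain had 178 counts in the bleomycin and 242 in the saline library, a ratio of 0.744 (exact 95% interval 0.609 to 0.906), and was not called. An entry that carries the phrase for a transmembrane domain had 37 counts in the bleomycin and 25 in the saline library, a ratio of 1.5 (0.877 to 2.59). Many semaphorin descriptions hold these phrases, and whether the entries pool several genes was not tested, so they were given to no gene.

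Plxdc2, a plexin domain protein outside the families above, was chosen after its values were seen. It had 423 counts in the bleomycin and 758 in the saline library, more than any measured guidance gene in either library. It was 1.77-fold lower (1.57 to 2.0), under the 2-fold limit.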
